A study of Mus musculus with 9 samples.

Results

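RNA from hindlimb skeletal muscle of mice at postnatal days 2 and 7 (P2 and P7) was read on arrays, and 22180 genes were compared between the 2 ages. The comparison takes 6 of the study's 9 arrays, 3 titled P2 and 3 titled P7. The 3 arrays of postnatal day 14 (P14) entered the fit to share its estimate of the spread, and they show how each gene went on. Arrays were placed by their titles, and a gene is represented by the 1-symbol probe set that was brightest over all 9 arrays. All groups are of mixed strain, with no genotype or treatment named, and the 3 samples of an age are described as biological replicates. No label says if a sample came from a single mouse or from several pooled, or which hindlimb muscles were taken.

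In the days after birth, mouse limb muscle passes from embryonic and perinatal contractile proteins to the adult fast and slow forms. Dividing precursor cells still add nuclei to the fibres, and the nerve-muscle synapse changes the subunits of its acetylcholine receptor. The triads that couple membrane voltage to calcium release are built, and the connective tissue between the fibres matures.

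Each value is a log2 intensity made by RMA, a procedure that corrects background, normalises arrays against each other and summarises the probes of a set, so 1 unit is a doubling. The level that 95% of the values of 1411 smell and taste receptor genes stay under, 3.27, is used as background. Some of these receptors may be expressed in muscle, so the level is a working limit. By this measure 64% of all genes were above background at 1 age or more. No fold change is given for a gene whose mean at either age was at or under that level. A gene is called changed where its adjusted p was under 0.05 in limma, a linear model that moderates the spread of each gene.

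The 6 arrays differed in more than age. The 15 measured genes of skeletal muscle identity had medians of 9.78 to 10 on the P2 arrays and 9.92 to 10.3 on the P7 arrays, far above the background. The median of 26 skin keratinocyte genes was below it on all 6 arrays (2.95 to 3.07), although 10 of these genes were above it. Cartilage genes had a median of 5.24 on P2 replicate 2 against 3.66 and 3.44 on the other P2 arrays. The same array was low for red cell genes (3.09 against 4.69 and 4.61) and for neutrophil genes (3.07 against 4.34 and 3.82). Xist, the RNA of the inactive X chromosome, was high (8.43 to 8.80) on P2 replicate 3 and on P7 replicates 1 and 3, and low (2.10 to 3.26) on the other 3 arrays. The Y-linked genes Eif2s3y, Uty and Kdm5d, looked at after their values were seen, were high on exactly those other 3. P2 therefore holds 1 array of high Xist and P7 holds 2. In whole muscle, fewer cells of a type and less RNA per cell cannot be told apart.

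**Figure D1:**
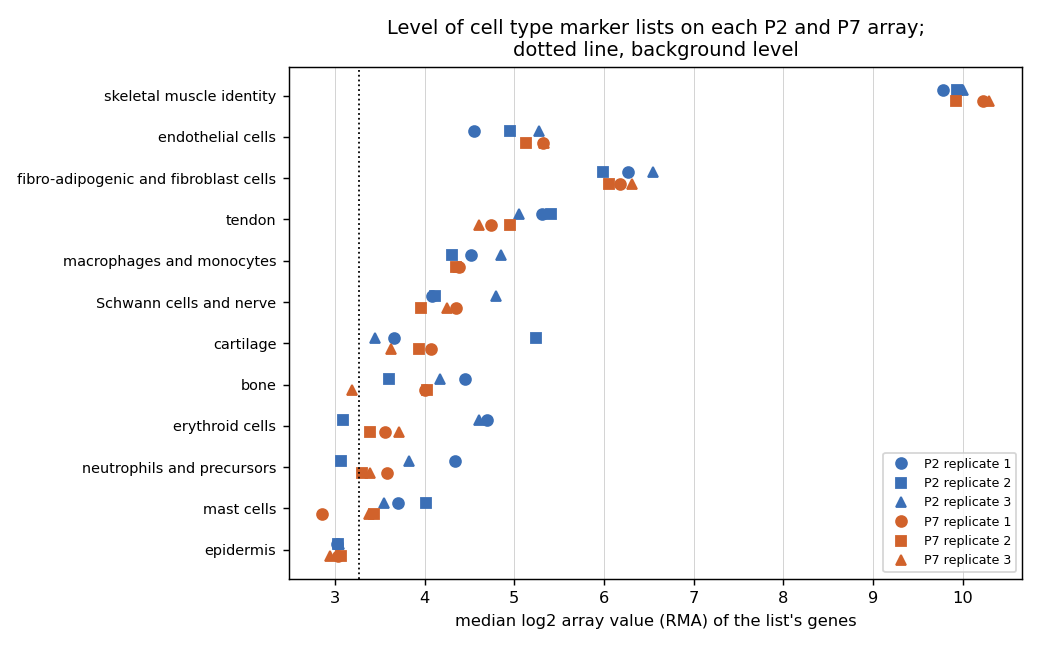
Median log2 array value of the measured genes of 12 marker lists on each P2 array (blue) and P7 array (orange), with replicates by symbol. Cartilage genes stand at 5.24 on P2 replicate 2 alone, while red cell and neutrophil genes stand at 3.09 and 3.07 there.

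From P2 to P7, 73 of 22180 genes (0.329%) were called changed, 41 of them higher (0.185%) and 32 lower (0.144%). The array values differed by at least 1 log2 unit in 59, a count that includes genes with an age at or under background. In all 73 the 3 arrays of one age lay apart from the 3 of the other. Among all genes, arrays lay apart in the higher direction in 1620 (7.3%) and in the lower in 1753 (7.9%). At an unadjusted p under 0.05, 1380 genes (6.22%) were higher and 1467 (6.61%) lower, and these shares are the background for the list counts that follow. The median log2 difference of all genes was -0.01. The count of 73 moved between 11, without P7 replicate 3, and 206, without P2 replicate 2. All 73 genes kept their direction in every such fit. This was fixed in advance, because the arrays of the 2 ages lay apart. The count was 154 without P2 replicate 3, 20 and 27 without P7 replicates 1 and 2, 44 without P2 replicate 1, and 36 to 42 without 1 of the P14 arrays. With the Xist level as a covariate it was 35.

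The calls of 11 genes held without any 1 of the 9 arrays. They were Pvalb, Klhl33, Ankrd23, A930003A15Rik, Nctc1 and Chrne, which rose, and Mettl21e, Fbn2, Cpa3, Tpsb2 and Cma1, which fell. The other 62 calls were lost without at least 1 array, most often (48 genes) with their highest adjusted p without P7 replicate 3, and that p was at most 0.186. Among the 41 genes called higher, the spread was wider at P2 than at P7 in 34. P2 replicate 1 was the lowest P2 array in 28 of them and P2 replicate 3 the highest in 25. The median SD over all genes was also wider at P2, 0.25 against 0.20 at P7. These counts were not made over all genes, so they are not read as a trait of the 41.

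**Figure D2:**
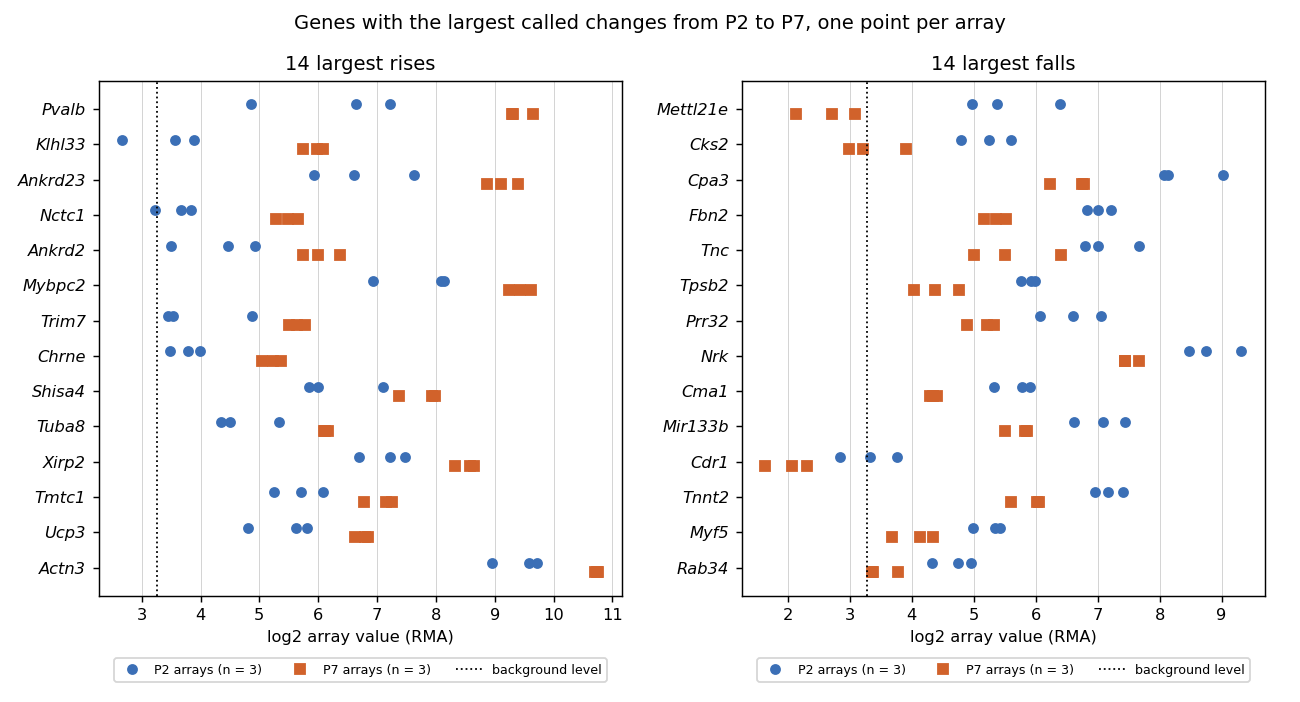
Log2 array values of the 14 largest rises and 14 largest falls among named, called genes, sarcomere myosins left out, with 1 point for each P2 array (blue) and P7 array (orange). In each row the 3 arrays of one age lie apart from the 3 of the other, which the choice of these genes required. The dotted line is the background level of 3.27.

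Outside the adult fast sarcomere genes, the list with the most rises was that of muscle ankyrin-repeat, kelch and ubiquitin ligase genes. Of its 36 measured genes, 4 rose (Klhl33, Ankrd23, Ankrd2 and Trim7) and none fell. At an unadjusted p under 0.05, 15 were higher and 1 lower, and the median log2 difference of the list was 0.30. Without 1 array at a time this median stayed between 0.30 and 0.34.

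Klhl33, a kelch-repeat protein, read 2.67, 3.88 and 3.56 on the P2 arrays and 5.75, 5.98 and 6.08 on the P7 arrays. This was a 5.92-fold rise (log2 2.57, SE 0.25, adjusted p = 0.000697), and the P2 mean of 3.37 was close to background. Ankrd23, a muscle ankyrin repeat protein that binds titin, read 5.93, 6.61 and 7.63 at P2 and 8.87, 9.10 and 9.4 at P7, a 5.26-fold rise (log2 2.40, SE 0.31, adjusted p = 0.00519). For both genes the lowest P7 array was more than 1 log2 unit above the highest P2 array.

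Ankrd2, of the same ankyrin family, read 3.50, 4.92 and 4.47 at P2 and 5.99, 5.74 and 6.36 at P7, a 3.33-fold rise (log2 1.73, SE 0.30, adjusted p = 0.0258). Its call was lost without P2 replicate 1 or any P7 array, with an adjusted p of up to 0.135. Trim7, a tripartite motif protein that binds glycogenin, read 3.44, 3.54 and 4.87 at P2 and 5.50, 5.64 and 5.78 at P7, a 3.22-fold rise (log2 1.69, SE 0.30, adjusted p = 0.0308). P2 replicate 3 was the high P2 array for Trim7, and the call was lost without 7 of the 9 arrays, with an adjusted p of up to 0.135. A second, dimmer Trim7 probe set differed by 0.34.

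Members of these families outside the called set gave smaller values. Klhl31 differed by 1.03 (SE 0.21, adjusted p = 0.0517) and the ankyrin and SOCS box gene Asb16 by 1.13 (SE 0.23, adjusted p = 0.0532), and neither passed. Over all 46 kelch-like and Kbtbd genes 1 was called, and the median difference was -0.07. Over 75 F-box genes none was called, with 3 higher and 10 lower at an unadjusted p under 0.05 and a median of 0.02.

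Xirp2, Actn3 and Nrap, which bind actin, rose too. Xirp2, a Xin-repeat protein that binds actin, read 6.69, 7.48 and 7.23 at P2 and 8.33, 8.65 and 8.58 at P7, a 2.62-fold rise (log2 1.39, SE 0.20, adjusted p = 0.00989). Actn3, the alpha-actinin of fast fibres, read 8.96, 9.59 and 9.72 at P2 and 10.76, 10.70 and 10.73 at P7, a 2.47-fold rise (log2 1.31, SE 0.20, adjusted p = 0.0112). Its 3 P7 arrays differed from each other by far less than its P2 arrays did. Nrap, which anchors actin filaments during myofibril assembly, rose 1.96-fold (log2 0.97, SE 0.17, adjusted p = 0.0308). The calls were lost without P7 replicate 3 in all 3 genes, where the adjusted p was 0.0637 for Xirp2 and 0.15 for Nrap and no higher than 0.0641 for Actn3. Actn3 also lost its call without P7 replicate 1, and Xirp2 without P7 replicate 2. The Nrap call was lost as well without P2 replicate 1, any other P7 array or any P14 array.

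Mybpc2, the fast isoform of myosin-binding protein C, read 6.93, 8.14 and 8.08 at P2 and 9.44, 9.24 and 9.62 at P7, a 3.28-fold rise (log2 1.71, SE 0.27, adjusted p = 0.013). Among 14 adult fast sarcomere genes 5 rose, these being Mybpc2, Actn3 and the myosin heavy chains Myh4, Myh1 and Myh2, and all 14 had positive differences (median 0.61). Myh4, the heavy chain of the fastest fibres, spread widely at P2 (5.33, 8.85 and 10.26) and little at P7 (12.31, 12.15 and 12.24). The Myh4 call held in only 3 of the 9 fits without 1 array (adjusted p up to 0.153). The Myh2 call held in only 1 of them (adjusted p up to 0.131). Of 6 developmental isoforms, 4 fell: Myh3, Myh8, Myl4 and Tnnt2 (median -1.06). The Myl4 call held in only 1 of the 9 fits without 1 array (adjusted p up to 0.135). Tnnt2, the embryonic and cardiac troponin T, read 7.41, 6.96 and 7.17 at P2 and 6.01, 6.06 and 5.61 at P7, a 2.44-fold fall (log2 -1.29, SE 0.18, adjusted p = 0.0087). Of 10 slow isoforms none was called, and the median was -0.15.

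Calcium-handling and excitability genes were next. Pvalb, parvalbumin, the soluble calcium buffer of fast fibres, had the largest rise among called genes outside the myosins. It read 4.86, 6.65 and 7.21 at P2 and 9.65, 9.31 and 9.29 at P7, a 9.04-fold rise (log2 3.18, SE 0.41, adjusted p = 0.00519). The P2 arrays spanned more than 2 log2 units, while the P7 arrays lay close together. Without P2 replicate 1 the log2 difference was 2.49, and without P2 replicate 3 it was 3.66. Of 32 calcium release and uptake genes Pvalb alone was called, while 13 were higher and 1 lower at an unadjusted p under 0.05, and the median was 0.29. Casq1, calsequestrin, differed by 0.86 (SE 0.17, adjusted p = 0.0519), and Trdn, triadin, by 0.86 (SE 0.19, adjusted p = 0.0659).

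Of 20 membrane excitability genes 1 rose and 8 were higher at an unadjusted p under 0.05 (median 0.34). The called gene was Clcn1, the muscle chloride channel that stabilises the resting membrane. It read 5.35, 5.35 and 5.34 at P2 and 6.21, 6.13 and 6.26 at P7, a 1.81-fold rise (log2 0.85, SE 0.15, adjusted p = 0.0308). The 3 values within each age were close together, yet the call was lost without any P7 array, any P14 array or P2 replicate 1 (adjusted p up to 0.135). Among 86 potassium channel genes Kcnn1, a small-conductance calcium-activated channel, rose 1.77-fold (log2 0.82, SE 0.16, adjusted p = 0.0469), a call that was lost without 8 of the 9 arrays (adjusted p up to 0.171). In that family 13 genes were higher and none was lower at an unadjusted p under 0.05, against 6.22% and 6.61% of all genes, with a median of 0.11. Fxyd1, the sodium pump regulator phospholemman, differed by 1.12 (SE 0.27, adjusted p = 0.0943).

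At the nerve-muscle synapse an adult receptor subunit rose while the values of its fetal counterpart were lower. Chrne, the adult epsilon subunit of the acetylcholine receptor, read 3.48, 3.79 and 4.0 at P2 and 5.37, 5.04 and 5.23 at P7, a 2.74-fold rise (log2 1.46, SE 0.18, adjusted p = 0.00462). Chrng, the fetal gamma subunit that epsilon replaces, read 5.18, 4.30 and 5.36 at P2 and 3.82, 3.90 and 3.68 at P7 (log2 difference -1.14, SE 0.24, adjusted p = 0.0556). The gamma arrays lay apart, but the difference missed the threshold. Ncam1, an adhesion molecule that is spread over immature fibres, differed by -0.84 (SE 0.17, adjusted p = 0.0517). Of 25 synapse genes Chrne was the only call, 3 were higher and 5 lower at an unadjusted p under 0.05, and the median was -0.06. Ret, the receptor of the GDNF family of nerve growth factors, rose 2.18-fold (log2 1.13, SE 0.17, adjusted p = 0.013), and its call was lost without any 1 P7 array (adjusted p up to 0.0667).

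The RefSeq promoter table (GRCm38.p6) gives 1 start for Chrne, and the 250 bases before it are shown because they hold 1 match to each of 2 motifs. Capitals mark the MyoD-type E-box CAGCTG, which begins 138 bases before the start, and CCGGAA, which begins 76 bases before it.
Chrne chr11:70619195-70619444, minus strand: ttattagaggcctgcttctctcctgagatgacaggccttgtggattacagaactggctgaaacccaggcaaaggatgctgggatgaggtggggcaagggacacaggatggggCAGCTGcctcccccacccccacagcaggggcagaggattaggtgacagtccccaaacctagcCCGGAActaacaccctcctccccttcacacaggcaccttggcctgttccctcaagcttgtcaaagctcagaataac
CCGGAA is the reverse strand of TTCCGG, the N-box known from synaptic receptor genes, and it was looked for after this sequence had been read. TTCCGG stands on either strand of 4 of 31 matched promoters of genes called higher (12.9%), of 2 of 25 of genes called lower (8.0%) and of 15.1% of all 16990 matched promoters of this length. CAGCTG stands in 9 of the 31 (29%), in 3 of the 25 (12%) and in 12.2% of all.

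A second motif was counted in the same promoters. The MEF2 site, the AT-rich sequence read by the MEF2 factors of muscle, was found in 8 of 31 promoters of genes called higher (25.8%), in 2 of 25 of genes called lower (8.0%) and in 447 of all 16990 (2.63%). The first start listed for a gene was used, and both strands were searched. The 8 sites are shown because they come from genes of different roles: 2 myosins, a calcium buffer, a kelch protein, a Xin protein, a transcription elongation factor (Tcea3), a phosphatase (Dupd1) and a chloride channel. Each window holds 30 bases of the gene's own strand, with the match in capitals.
Myh4 chr11:67237620-67237649, plus strand: ccctgtcaaaTTATTTATAGatgacaagaa
Pvalb chr15:78206561-78206590, minus strand: aggccaagggTTATTAATAGgcctggctca
Myh1 chr11:67199881-67199910, plus strand: acaactcaaaTTATTTATAGgagattgatt
Klhl33 chr14:50897514-50897543, minus strand: ctcaggctagCTATAATTAGccaagtgcgg
Xirp2 chr2:67445918-67445947, plus strand: agctcagttcCTAAAAATAGgtgctaggtt
Tcea3 chr4:136247880-136247909, plus strand: tccttgaagtCTATATTTAGtgcccgccac
Dupd1 chr14:21714592-21714621, minus strand: agatctgaccCTAAAAATAGgccctctgag
Clcn1 chr6:42286624-42286653, plus strand: ggagagacagCTATAAATAGctagaggtgg
The matches begin 35 to 211 bases before the start. The same 10 letters stand in Myh4 and Myh1, which rose, and in Myh8, which fell, and the other match among the lower genes was in Cpa3:
Myh8 chr11:67277015-67277044, plus strand: ccttgtcaaaTTATTTATAGgagattggtt
The general E-box CANNTG was in 71.0% of higher, 68.0% of lower and 62.7% of all promoters. The MCAT element CATTCC was in 12.9%, 8.0% and 11.7%, and the CArG box in 2 of 31, 0 of 25 and 1.29% of all. A match is a run of letters, and no binding was measured here.

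Genes of energy metabolism moved little one by one. Ucp3, a mitochondrial carrier of muscle that follows fatty acid use, was the only call among 27 genes of fatty acid uptake and fuel choice. It read 4.8, 5.81 and 5.62 at P2 and 6.62, 6.80 and 6.84 at P7, a 2.53-fold rise (log2 1.34, SE 0.23, adjusted p = 0.0235), and lost its call without any 1 P7 array (adjusted p up to 0.123). Apoo, a protein of the mitochondrial inner membrane folds, rose 2.05-fold (log2 1.04, SE 0.20, adjusted p = 0.0429), and its call was lost without P2 replicate 1, any P7 array or any P14 array (adjusted p up to 0.135). Slc38a3, a glutamine transporter, rose 2.45-fold (log2 1.29, SE 0.23, adjusted p = 0.0329), the only call among 306 solute carriers outside the mitochondrial Slc25 family, and it lost the call without 6 of the 9 arrays (adjusted p up to 0.136).

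Of 73 subunits of the respiratory chain and ATP synthase none was called. At an unadjusted p under 0.05, 19 were higher and none lower, and 63 had positive differences, with a median of 0.25. Without P2 replicate 1 this median was 0.10, and without P2 replicate 3 it was 0.35. The smallest p-values belonged to the ATP synthase subunit Atp5h (log2 0.81, SE 0.19, adjusted p = 0.0804) and Cox7a1, the muscle isoform of a cytochrome oxidase subunit (log2 1.05, SE 0.27, adjusted p = 0.114). Medians were 0.19 over 25 citrate cycle genes, 0.11 over 23 glycolysis genes, 0.15 over 21 glycogen genes and -0.08 over 25 fatty acid oxidation genes, with no call in any of them. Phkg1, the muscle catalytic subunit of phosphorylase kinase, differed by 1.42 (SE 0.28, adjusted p = 0.0501).

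Cholesterol synthesis genes lay on the other side. Of 21, none was called, 6 were lower and none higher at an unadjusted p under 0.05, and 20 had negative differences, with a median of -0.39. The median was -0.50 without P2 replicate 2 and -0.21 without P2 replicate 3. Fdps, farnesyl diphosphate synthase, read 5.16, 4.75 and 5.20 at P2 and 4.31, 4.19 and 4.13 at P7 (log2 -0.83, SE 0.19, adjusted p = 0.0773).

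Long non-coding RNA genes were among the calls that held without any 1 array. Nctc1, 1 of the 2, read 3.23, 3.84 and 3.67 at P2 and 5.66, 5.28 and 5.50 at P7, a 3.72-fold rise (log2 1.90, SE 0.19, adjusted p = 0.000697). A930003A15Rik read 4.91, 5.04 and 6.15 at P2 and 7.24, 7.97 and 7.68 at P7, a 4.81-fold rise (log2 2.27, SE 0.29, adjusted p = 0.00519). Both groups of arrays lay more than 1 log2 unit apart in each gene.

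Among 483 microRNA genes 1 fell and 1 rose. A probe set for a microRNA gene reads the precursor or its host transcript, not the mature form. Mir133b, a muscle microRNA, read 7.09, 7.44 and 6.61 at P2 and 5.82, 5.51 and 5.85 at P7, a 2.50-fold fall (log2 -1.32, SE 0.22, adjusted p = 0.0235). Its neighbour Mir206, named after its values were seen, read 3.04, 2.50 and 3.71 at P2 and 1.86, 1.88 and 1.88 at P7, with both means under background (adjusted p = 0.0532). Mir365-2 rose from 3.01, 3.11 and 2.88 to 4.32, 3.74 and 4.09 (adjusted p = 0.0308), and its P2 mean was under background. The Mir365-2 call held in only 2 of the 9 fits without 1 array (adjusted p up to 0.135). Mir365-1, a gene on another chromosome and also named after its values were seen, differed by 0.75 (SE 0.18, adjusted p = 0.0974).

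The mature 3p forms of these genes are shown with the seed, bases 2 to 8, in capitals, because the seeds tell which of them share targets (RefSeq, GRCm38.p6).
miR-133b-3p chr1:20682834-20682855, plus strand: uUUGGUCCccuucaaccagcua
miR-206-3p chr1:20679055-20679076, plus strand: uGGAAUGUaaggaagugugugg
miR-365-3p chr11:79726467-79726488 and chr16:13453895-13453916, plus strand: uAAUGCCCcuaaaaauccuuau
The first and second lie 3757 bases apart on the same strand and have different seeds. The third is the same sequence from both Mir365 genes, so their precursors are told apart by the arrays and their mature product is not.

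Small nucleolar RNA genes, whose products guide the modification of ribosomal RNA, were mostly lower at P7. None of 73 was called, while 28 were lower and 2 higher at an unadjusted p under 0.05, against 6.61% and 6.22% of all genes, and 57 had negative differences. The median was -0.42, with a range of -0.50 to -0.31 over the fits without 1 array. Snord70 read 6.01, 5.61 and 5.87 at P2 and 4.49, 4.74 and 3.65 at P7 (log2 -1.54, SE 0.32, adjusted p = 0.0556). Snord15a read 7.57, 7.23 and 6.26 at P2 and 5.81, 6.05 and 5.28 at P7 (log2 -1.31, SE 0.29, adjusted p = 0.0659). Of 33 protein genes of ribosome biogenesis, 1 was lower and none higher at that p, and their median was -0.04. Over 64 cytosolic ribosomal protein genes the median was -0.09.

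**Figure D3:**
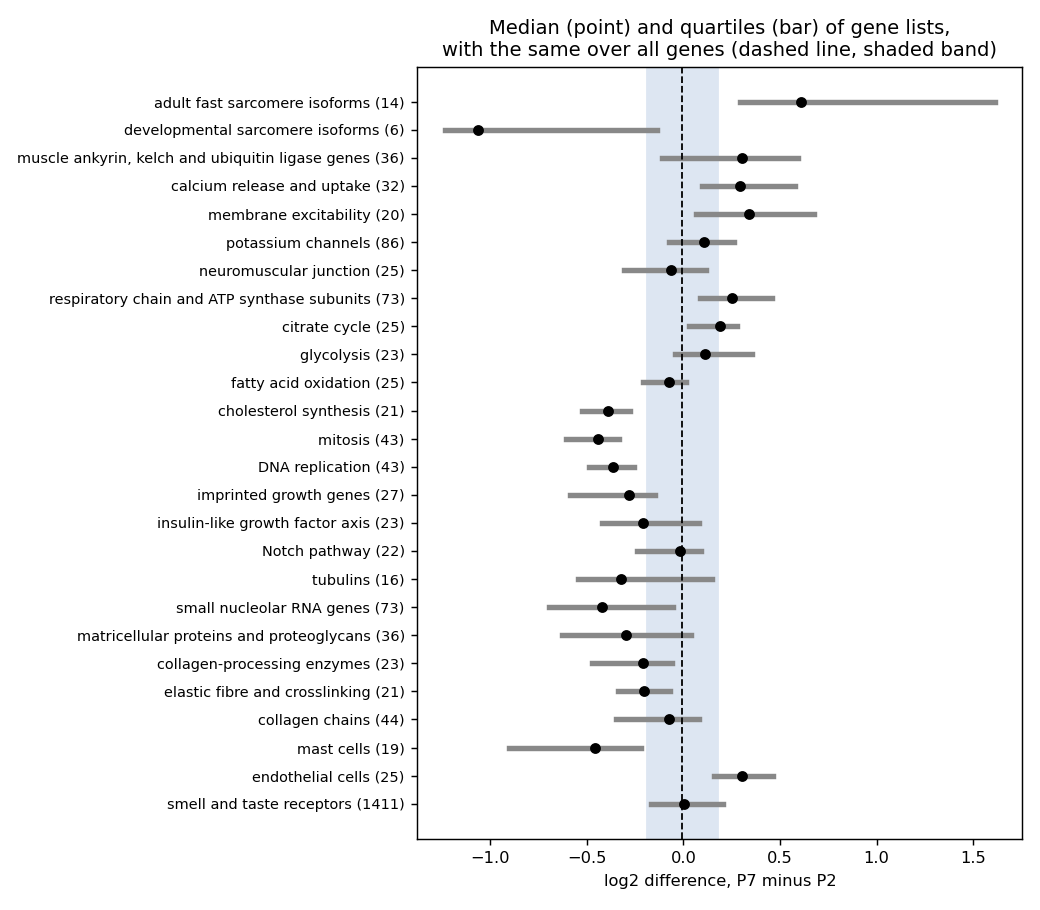
Median (point) and quartiles (bar) of the log2 difference P7 minus P2 for 26 gene lists, with the number of measured genes in brackets; the dashed line and shaded band give the median and quartiles of all 22180 genes. Fast sarcomere genes (0.61) lie to the right, and developmental isoforms (-1.06), mast cell genes (-0.46), mitosis genes (-0.44) and small nucleolar RNA genes (-0.42) to the left.

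Mast cell genes gave 3 of the 5 falls that held without any 1 array. Mast cells are tissue-resident immune cells that store proteases and histamine in granules. Of 19 mast cell genes 4 fell and none rose, 8 were lower and none higher at an unadjusted p under 0.05, and the median was -0.46 (range -0.61 to -0.36 without 1 array).

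Cpa3, the carboxypeptidase of mast cell granules, read 9.03, 8.07 and 8.14 at P2 and 6.23, 6.79 and 6.75 at P7, a 3.54-fold fall (log2 -1.82, SE 0.25, adjusted p = 0.00761). Tpsb2, a tryptase, read 5.93, 5.76 and 5.99 at P2 and 4.37, 4.03 and 4.76 at P7, a 2.85-fold fall (log2 -1.51, SE 0.21, adjusted p = 0.00762). Cma1, a chymase, read 5.32, 5.78 and 5.91 at P2 and 4.29, 4.34 and 4.41 at P7, a 2.50-fold fall (log2 -1.32, SE 0.18, adjusted p = 0.00761). For each of the 3 proteases all P7 arrays lay below all P2 arrays, and the call held without any 1 array, though narrowly without P7 replicate 1 (adjusted p = 0.0498 for each).

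Hdc, which makes histamine, read 4.04, 4.01 and 3.44 at P2 and 2.48, 2.73 and 3.04 at P7 (log2 -1.08, SE 0.21, adjusted p = 0.0469). Its P7 mean was under background, and its call was lost without 8 of the 9 arrays (adjusted p up to 0.147). The chymase Mcpt4 and the growth factor receptor Kit, picked after their values were seen, differed by -0.91 (adjusted p = 0.0531) and -0.58 (adjusted p = 0.26). Fcer1a, Mcpt1 and Mcpt2, picked in the same way, were under background at both ages. Macrophage genes had a median of -0.18, neutrophil genes -0.28, lymphocyte genes 0.11 and MHC class II genes 0.19, with no call in any of these lists. P2 replicate 2, which stood apart for cartilage and blood genes, lay within the other P2 arrays or within 0.1 of them for Cpa3 and Cma1, and was the lowest P2 array for Tpsb2, at 5.76.

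**Figure D4:**
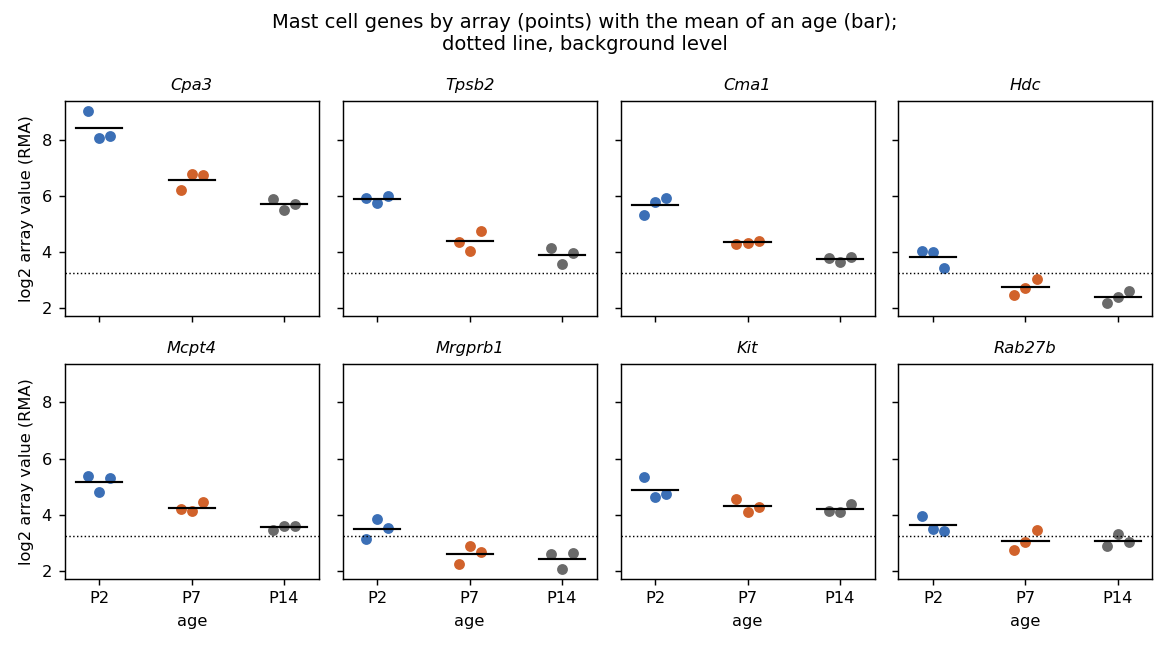
Log2 array values of the 8 mast cell genes with an unadjusted p under 0.05, on the 3 arrays (points) of P2, P7 and P14, with the mean of each age (bar) and the background level (dotted line). Cpa3, Tpsb2, Cma1 and Hdc were called lower at P7, and their P14 means lie below their P7 means.

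Among matrix genes Fbn2, Tnc and Npnt fell. Fbn2, fibrillin-2, which forms microfibrils mainly before birth, read 7.21, 6.83 and 7.01 at P2 and 5.52, 5.36 and 5.16 at P7, a 3.18-fold fall (log2 -1.67, SE 0.17, adjusted p = 0.000697). It was the only call among 21 elastic fibre and crosslinking genes (median -0.20, with 3 lower and 1 higher at an unadjusted p under 0.05). Tnc, tenascin-C, a matrix protein of growing and injured tissue, read 7.67, 6.80 and 7.00 at P2 and 6.41, 5.50 and 5.01 at P7, a 2.86-fold fall (log2 -1.52, SE 0.30, adjusted p = 0.049). The Tnc arrays came within 0.4 of each other across the ages, and the call was lost without 7 of the 9 arrays, with an adjusted p of up to 0.179.

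Tnc was also the only call among 36 matricellular proteins and proteoglycans, of which 14 were lower and 1 higher at an unadjusted p under 0.05 (median -0.30). The proteoglycan Aspn read 8.83, 8.93 and 8.89 at P2 and 7.85, 8.33 and 7.84 at P7 (log2 -0.88, SE 0.18, adjusted p = 0.0501). Vcan, versican, differed by -0.95 (SE 0.20, adjusted p = 0.0637). Npnt, nephronectin, a basement membrane ligand of integrins, fell 2.01-fold (log2 -1.0, SE 0.18, adjusted p = 0.0333), a call lost without 8 of the 9 arrays (adjusted p up to 0.121). Osr2, a transcription factor of limb connective tissue, fell 2.18-fold (log2 -1.12, SE 0.17, adjusted p = 0.0112).

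Collagens gave no call. Of 44 collagen chain genes 3 were higher and 7 lower at an unadjusted p under 0.05, and the median was -0.07. Col1a1, the main fibrillar chain, differed by -0.26 (SE 0.24, adjusted p = 0.706). Of 23 collagen-processing enzymes 7 were lower and none higher at that p (median -0.21). The lysyl hydroxylase Plod2 differed by -0.89 (SE 0.20, adjusted p = 0.0702). Tendon genes had a median of -0.33 and cartilage genes one of -0.25. The cartilage median was 0.25 without P2 replicate 2 and -0.66 without P2 replicate 3, so its sign rested on single arrays. In the same 2 fits Fbn2 stayed called.

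Mettl21e, a methyltransferase gene related to the muscle enzyme Mettl21c, fell to under background. It read 5.38, 6.39 and 4.98 at P2 and 2.13, 3.08 and 2.72 at P7 (log2 -2.94, SE 0.31, adjusted p = 0.000697), and since all 3 P7 arrays were under background, the size is that of the array values and not of a measured level at P7. Mettl21c itself read higher at P7 by 1.03 (SE 0.27, adjusted p = 0.118), which did not pass. Of 23 muscle protein methyltransferases and chaperones Mettl21e was the only call.

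Myf5, a myogenic factor of muscle precursor cells, read 4.99, 5.34 and 5.42 at P2 and 4.14, 3.67 and 4.34 at P7, a 2.29-fold fall (log2 -1.20, SE 0.22, adjusted p = 0.0329). It was the only call among 32 myogenic regulators and satellite cell genes, whose median was -0.01. Pax7, which marks satellite cells, differed by -0.12 (SE 0.28, adjusted p = 0.898), and Myog, which drives differentiation, by -0.07 (SE 0.17, adjusted p = 0.909). The Myf5 call was lost without P2 replicate 3, P14 replicate 3 or any P7 array (adjusted p up to 0.121).

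Genes of mitosis and DNA replication were lower at P7 as lists, while Cks2 was the only call among them. Cks2, a subunit of the cyclin-dependent kinases, read 5.24, 4.8 and 5.61 at P2 and 2.99, 3.90 and 3.21 at P7, a 3.60-fold fall (log2 -1.85, SE 0.28, adjusted p = 0.0112). Of its 4 probe sets, 2 held the same values and the other two differed by -1.03 and -0.49, and with the mean of all sets the difference was -1.31 (adjusted p = 0.0507). Of 43 mitosis genes 24 were lower and none higher at an unadjusted p under 0.05, 42 had negative differences, and the median was -0.44. Kif11, a motor of the mitotic spindle, differed by -0.97 (SE 0.19, adjusted p = 0.0501), and Mki67 by -0.48 (SE 0.21, adjusted p = 0.358). Of 43 DNA replication genes 14 were lower and none higher at that p (median -0.37), and all 9 minichromosome maintenance genes had negative differences (median -0.45, from -0.67 to -0.15 without 1 array). These medians moved with the P2 arrays: mitosis gave -0.60 without P2 replicate 2 and -0.33 without P2 replicate 3, and DNA replication -0.54 and -0.26. P2 replicate 2 was the lowest P2 array for both lists (medians 4.49 and 4.16). The P7 arrays had medians of 4.33 to 4.36 for mitosis and 3.99 to 4.35 for DNA replication, so P2 replicate 2 lay within the P7 arrays for the latter. For the minichromosome maintenance genes it lay below all 3 P7 arrays (4.06 against 4.15 to 4.52). None of these 9 genes had arrays that lay apart.

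Plagl1, Fzd8, Lepr and Rab34 also fell. Of 27 imprinted growth genes, which are read from 1 parental copy, 1 fell, and 12 were lower and none higher at an unadjusted p under 0.05 (median -0.28). Plagl1, an imprinted zinc finger factor, read 8.41, 8.37 and 8.45 at P2 and 7.54, 7.67 and 7.37 at P7, a 1.85-fold fall (log2 -0.88, SE 0.16, adjusted p = 0.0308). The Plagl1 call held in only 2 of the 9 fits without 1 array (adjusted p up to 0.146). Dlk1, an imprinted growth regulator, differed by -0.82 (SE 0.17, adjusted p = 0.0521), while Igf2, the fetal growth factor, differed by -0.21 (SE 0.17, adjusted p = 0.65). Fzd8, a Wnt receptor, fell 1.91-fold (log2 -0.93, SE 0.16, adjusted p = 0.0245). Lepr, the leptin receptor, read 4.51, 4.48 and 4.2 at P2 and 3.17, 3.32 and 3.26 at P7 (log2 -1.15, adjusted p = 0.0087), with its P7 mean just under background. Rab34, a small GTPase of membrane traffic, read 4.32, 4.75 and 4.96 at P2 and 3.78, 3.36 and 3.37 at P7, a 2.26-fold fall (log2 -1.17, SE 0.20, adjusted p = 0.0245).

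Several falls were on the X chromosome. Of the 32 genes called lower, 25 had a position in the promoter table, and 6 of these (24.0%) were X-linked, against 1 of 31 (3.23%) for genes called higher and 4.04% of 16990 genes in all. They were Nrk, a protein kinase, Prr32, Gpc3, a glypican that restrains growth, Capn6, a calpain of embryonic muscle, Agtr2, the angiotensin receptor of fetal tissue, and Cdr1. Of 686 X-linked genes 71 (10.3%) were lower and 25 (3.64%) higher at an unadjusted p under 0.05, against 6.61% and 6.22% of all genes.

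Nrk read 9.32, 8.47 and 8.76 at P2 and 7.44, 7.66 and 7.45 at P7, a 2.52-fold fall (log2 -1.33, SE 0.21, adjusted p = 0.013). Prr32 read 6.07, 7.05 and 6.6 at P2 and 5.21, 5.32 and 4.88 at P7, a 2.70-fold fall (log2 -1.43, SE 0.22, adjusted p = 0.014). Cdr1 read 3.76, 3.32 and 2.84 at P2 and 1.64, 2.30 and 2.06 at P7 (log2 -1.31, SE 0.23, adjusted p = 0.0287), with its P7 mean under background. The Cdr1 call held in only 2 of the 9 fits without 1 array (adjusted p up to 0.115). Gpc3, Capn6 and Agtr2 fell 2.08-fold, 2.11-fold and 2.21-fold. Since the ages differ in the number of arrays of high Xist, the differences are also given within each kind. Each kind sets 1 array of one age against 2 of the other. The arrays of these genes lay apart, so the directions were fixed in advance and only the sizes could differ. On the arrays of low Xist they were -1.23 for Nrk, -1.24 for Prr32, -1.23 for Gpc3, -0.95 for Capn6, -1.14 for Agtr2 and -1.24 for Cdr1. On the arrays of high Xist they were -1.32, -1.55, -0.94, -1.14, -1.07 and -0.99 in the same order. With Xist as a covariate Nrk, Prr32, Gpc3 and Agtr2 stayed called, with adjusted p-values of 0.0429, 0.0429, 0.0388 and 0.0409, and Capn6 and Cdr1 did not, at 0.0725 and 0.068.

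Other genes that rose belong to no list with further calls. Shisa4, a membrane protein, read 6.00, 5.85 and 7.10 at P2 and 7.94, 7.37 and 7.99 at P7, a 2.73-fold rise (log2 1.45, SE 0.28, adjusted p = 0.043). Tmtc1, an enzyme of the endoplasmic reticulum, read 5.24, 5.71 and 6.08 at P2 and 7.15, 6.78 and 7.26 at P7, a 2.61-fold rise (log2 1.38, SE 0.21, adjusted p = 0.0126). The P2 arrays lay below the P7 arrays in both, by as little as 0.27 for Shisa4. The Shisa4 call held in only 1 of the 9 fits without 1 array (adjusted p up to 0.172).

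Of the microtubule genes, Tuba8 and Mapt rose. Tuba8, an alpha-tubulin, read 4.34, 4.50 and 5.34 at P2 and 6.17, 6.09 and 6.11 at P7, a 2.63-fold rise (log2 1.40, SE 0.23, adjusted p = 0.0165), and Mapt, the microtubule-binding protein tau, rose 2.28-fold (log2 1.19, SE 0.23, adjusted p = 0.042). The Mapt call held in only 1 of the 9 fits without 1 array (adjusted p up to 0.155). A second Tuba8 probe set, near background, differed by -0.21. Of all 16 tubulins 5 were lower and Tuba8 was higher at an unadjusted p under 0.05, and the median was -0.32. Tubb2a differed by -0.94 (SE 0.23, adjusted p = 0.102).

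Bhlhe40, a repressor that also acts in the circadian clock, rose 1.84-fold (log2 0.88, SE 0.17, adjusted p = 0.049). Its call held in only 2 of the 9 fits without 1 array (adjusted p up to 0.147). Of 17 clock genes 5 were higher and none lower at an unadjusted p under 0.05 (median 0.19), and the time of day of sampling is not among the labels. Nr1d1, a clock repressor, differed by 0.90 (SE 0.20, adjusted p = 0.0659). Among 27 genes of the thyroid hormone and glucocorticoid response none was called, and 5 were higher and 4 lower at an unadjusted p under 0.05. Their differences ran from -1.20 to 1.13, and the median was 0.08, or -0.01 without P2 replicate 1. Klf9, which both hormones induce, differed by 1.13 (SE 0.24, adjusted p = 0.0637), and Thrb, a thyroid hormone receptor, by 0.89 (SE 0.21, adjusted p = 0.0948).

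Vessel genes were higher at P7 in most members. Of 25 endothelial genes none was called, 8 were higher and 1 lower at an unadjusted p under 0.05, and 23 had positive differences (median 0.30, from 0.19 without P2 replicate 1 to 0.46 without P2 replicate 3). The pericyte gene Rgs5 read 6.99, 8.16 and 8.41 at P2 and 9.12, 9.24 and 9.28 at P7 (log2 1.36, SE 0.28, adjusted p = 0.053). It had the highest difference of 22 pericyte and smooth muscle genes, of which none was called. Of these, 13 had positive and 9 negative differences, and the median was 0.02. At an unadjusted p under 0.05, 3 were higher and none lower. Red cell genes had a median of -0.24, which was -0.53 without P2 replicate 2 and -0.08 without P2 replicate 1. For neutrophil genes the median was -0.28, and it was -0.56 and 0.00 in those 2 fits.

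Several families gave no call and few small p-values. Among 22 Notch pathway genes none reached an unadjusted p of 0.05 in either direction (median -0.02). Of 36 Hox genes 1 was higher at that p and none lower, and of 18 cytosolic aminoacyl-tRNA synthetases none passed it. Proteasome subunits (47 genes, median 0.02) and heat shock genes (68 genes, median -0.01) had no call either.

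The interval that followed is set beside these changes, with the P7 arrays used in both comparisons. Klhl33 rose by 2.57 to P7 and by a further 2.22 to P14 (adjusted p for the later interval 0.00015). Nctc1 rose by 1.90 and then by 1.94 (adjusted p = 3.5e-05), and Clcn1 by 0.85 and then by 0.95 (adjusted p = 0.0032). Fbn2 fell by 1.67 and then by 1.30 (adjusted p = 0.00064), Gpc3 by 1.05 and then by 1.05 (adjusted p = 0.0037), and Mir133b by 1.32 and then by 2.07 (adjusted p = 8.8e-05).

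In other genes the later difference was small. A930003A15Rik differed between P14 and P7 by 0.05, Osr2 by -0.12 and Mapt by 0.05, none of them called. The difference between the intervals was called in 43 of 22180 genes (0.194%), and in 4 of the 73. These 73 were chosen on a difference that enters this test, so nothing is read from that count. Myh8, the perinatal myosin, fell by 1.08 to P7 and by 4.24 from P7 to P14, and the intervals differed by -3.16 (SE 0.27, adjusted p = 0.00023). Mettl21e fell by 2.94 and then differed by 0.90 (adjusted p = 0.16), and the intervals differed by 3.84 in array values (adjusted p = 0.00637), with P7 under background in both. For A930003A15Rik, Osr2 and Mapt the difference between the intervals did not pass, with adjusted p-values of 0.14 to 0.42.

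**Figure D5:**
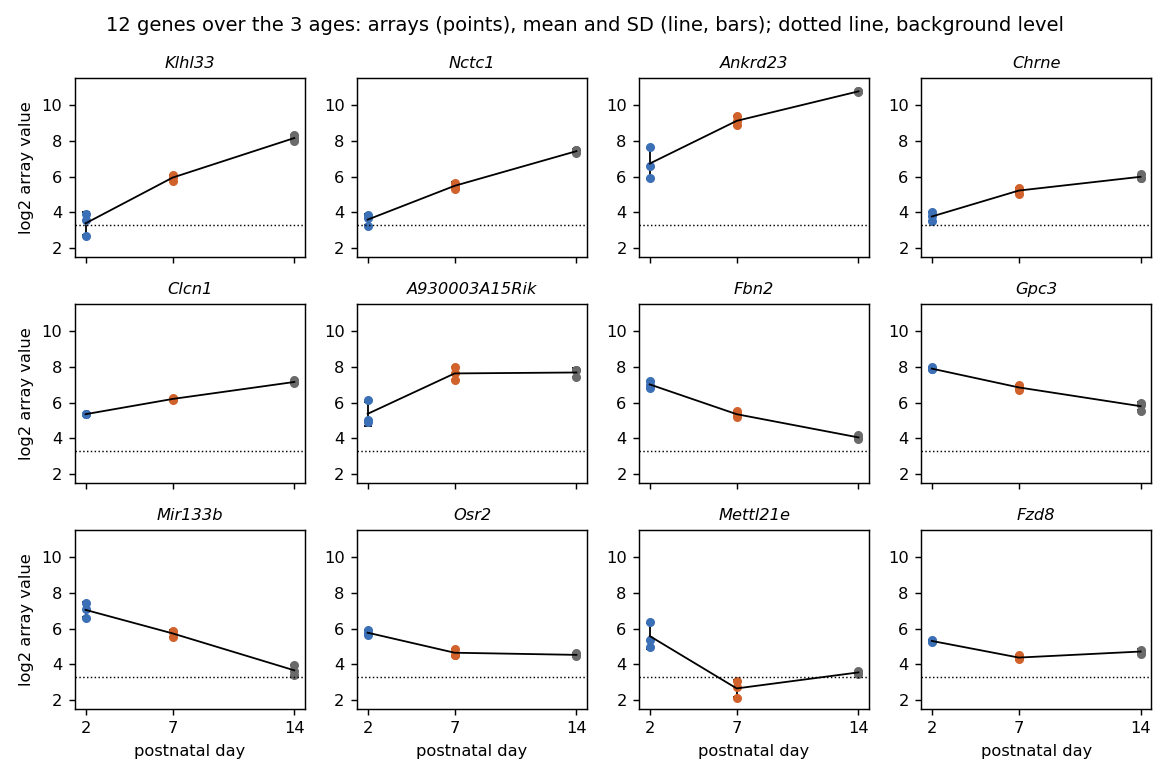
Log2 array values of 12 called genes at postnatal days 2, 7 and 14, with 1 point per array, the mean (line) and the SD of 3 arrays (bars); the dotted line is the background level. Klhl33, Nctc1 and Clcn1 rise in both intervals, Fbn2, Gpc3 and Mir133b fall in both, and A930003A15Rik and Osr2 stay near their P7 means at P14.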

How the data were processed

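The authors deposited 1 log2 intensity per probe set and array for 41345 probe sets; RMA and the Partek software come from the submitters' processing notes, without versions. No label names the array type or a genome build. Labelled cRNA was made from 6 ug of Trizol-extracted total RNA, per the labels' protocols. Here, 23521 probe sets had 1 gene symbol, 1814 had several and 16010 were not listed; the brightest set of each of 22180 genes was kept, unfiltered. limma 3.58.1 (R 4.3.3) was fitted to all 9 arrays with a mean for each age, two-sided, with Benjamini-Hochberg adjustment over all genes. Errors are SEs of the fit. Precision is limited by the 3 arrays per age, and it is not known if these are separate mice, so p-values measure the spread between arrays. The fit was checked on simulated data.

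The members and gene lists (62 lists, 40 symbol families) were chosen with earlier results of these data known; 92% of list genes were measured. Patterns for histone and tRNA synthetase genes were updated to current symbols after the first histone pattern matched none. Per-array values are given for the 14 largest rises and falls among called genes that lie apart and exceed background, other called genes by their difference, and in each list up to 3 called genes or, with under 2, the 2 with the smallest p; clone names and sarcomere myosins were passed over in the first set. The anchors Mki67, Igf2, Pax7, Myog, Col1a1, Ckm, Hba-a1 and Xist were also set. Of these, Hba-a1 was not measured and no value is given for Ckm. Same-numbered P2 and P7 arrays did not deviate together (correlations -0.02, 0.06 and -0.03), so the numbers were not used as pairs. Promoter motifs were counted in the 250 bases before the first RefSeq start. Alternatives covered samples, normalisation, spread model, filter, probe sets, Xist and single arrays.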

Additional observations from a re-analysis of the deposited data

Results flagged for a closer look

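In 4 called genes the change from P7 to P14 differed from the change from P2 to P7 by limma's test of that difference. Mettl21e fell by 2.94 (log2) in the first interval and differed by 0.90 in the second, a difference between the intervals of 3.84 (adjusted p = 0.00637); all its P7 arrays were under background, so these sizes are of array values and not of measured levels. Myh8 fell more in the second interval, with a difference of -3.16 (adjusted p = 0.00023). Defb23, a defensin gene, and Gm2837 had higher values at P7 than at either other age, with differences of -1.59 (adjusted p = 0.0394) and -1.98 (adjusted p = 0.0421), and all their age means were under the background level of 3.27. The P7 arrays enter both intervals, and the intervals last 5 and 7 days. With 3 arrays an age, no single array was tested as an outlier.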

How the results depend on the processing

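All 73 called genes kept their direction in every fit in which they were tested. This was fixed in advance in the fits without 1 array and with only the 6 arrays of P2 and P7. The same held with genes above background only, an intensity trend, a robust spread model, weighted arrays or the replicate number as a block. The arrays of the 2 ages lay apart in all 73. Counts of called genes (in all; higher; lower) were 12; 6; 6 with only the 6 arrays of P2 and P7, 113; 68; 45 after quantile normalisation, 159; 86; 73 with an intensity trend, 173; 85; 88 with genes above background only, and 35; 16; 19 with Xist as a covariate. Without 1 array at a time they ran from 11 to 206, with 6 to 102 higher and 5 to 124 lower, and the count of genes whose intervals differed ran from 18 to 44, against 43 with all arrays. As a replicate block, the replicate number gave 61 calls, 52 of them among the 73. Counts under the other alternatives stayed within 1.5 times. Fits with fewer arrays have fewer degrees of freedom, though the count rose in some of them and fell in others. The cause of the moves was not tested in any fit. Called genes with an age at or under background, 15 in all, have no fold given.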

Other observations

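Of the called genes, 3 rest on probe sets whose brighter age was at or under background (Esp24, Gm2837 and Defb23), and no level of these genes can be stated. The smell receptor gene Vmn1r129 read 2.89 on average at P2 and 4.87 at P7 (log2 1.98, SE 0.40, adjusted p = 0.0501), above the level that most receptor genes stay under. Where a called gene had more than 1 probe set, the sets did not always give the same difference: Sec61b 1.06 and 0.06, Xirp2 1.39 and 0.33, and Plagl1 -0.88 and -1.66. The second sets had means of 2.06 for Sec61b, under background, 3.31 for Xirp2, close to it, and 3.61 for Plagl1. With the mean of all sets of a gene, the calls of Sec61b, Xirp2, Tuba8 and Cks2 were lost and that of Plagl1 was kept.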
